A study of Mus musculus with 12 samples.

Results

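The genes described here are 3 Notch receptors (*Notch1*, *Notch2* and *Notch3*), 5 ligands (*Dll1*, *Dll3*, *Dll4*, *Jag1* and *Jag2*) and 2 transcription factors of the *Hes* family (*Hes1* and *Hes5*). They were picked by gene symbol and not by a threshold on their values, although earlier results of these data were known, and all 10 were found among the 770 genes of the mouse nCounter PanCancer pathways panel, a hybridization assay that counts single RNA molecules with 1 probe pair per gene. Expression was measured in 12 samples, each from a different mouse. The 5 *RBS* lesions were eyes of Rax-creERT2::Ctnnb1(ex3)Fl/+SmoM2Fl/+ embryos collected at E18.5, in which tamoxifen given at E8.5 switches on Cre in cells with an active *Rax* promoter, the retinal precursor cells; Cre then removes exon 3 of *Ctnnb1*, which stabilizes β-catenin, and starts expression of SmoM2, a permanently active form of Smoothened. The 4 control eyes were E18.5 eyes of Ctnnb1(ex3)Fl/+SmoM2Fl/+ embryos, which carry both alleles without Cre. The 3 Shh-MBs were cerebellar tumors of hGFAP-cre::SmoM2Fl/+ mice at 14 days of age, where Cre acts in cells with an active human *GFAP* promoter. Shh-MBs therefore differ from the eye samples in genotype, age and tissue at once, and these cannot be told apart. A tamoxifen day is recorded only for the *RBS* lesions, and none is recorded for the control eyes or the Shh-MBs. The lesions replace most of the eye, so each sample is a mixture of cells, and fewer cells of a type cannot be told apart from less RNA per cell.

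Notch receptors are activated by Delta and Jagged ligands on a neighboring cell. The receptor is then cut, and its inner part moves to the nucleus, where it binds the DNA-binding protein RBPJ and switches on target genes, among them *Hes1* and *Hes5*. Hes proteins repress genes that drive neuronal differentiation, and in the embryonic retina the pathway keeps progenitor cells from differentiating too early.

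Compared with control eyes, *RBS* lesions showed higher expression of *Notch2*, *Notch3* and *Jag2* and lower expression of *Dll1*, *Dll3*, *Dll4*, *Hes1* and *Hes5*, while *Notch1* and *Jag1* did not pass the test. In Shh-MBs, 8 of the 10 genes were lower than in control eyes, and the exceptions were *Dll3* and *Jag1*. Beside these counts, 33.0% of all genes were called higher and 18.2% lower in the lesions, and 31.4% were called lower in Shh-MBs. Values are the deposited normalized signal on the linear scale, differences are on the log2(signal + 1) scale with their standard error (SE), and a gene was called where its adjusted p in limma, over all 770 genes, was below 0.05. Signals are compared only between samples of 1 gene, since probes of different genes differ in efficiency. The total signal of a sample corresponded to 335392 to 716684 counts above background, and the *RBS* lesions reached 335392 to 637795 of these. No pair of samples held identical values.

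**Figure D1:**
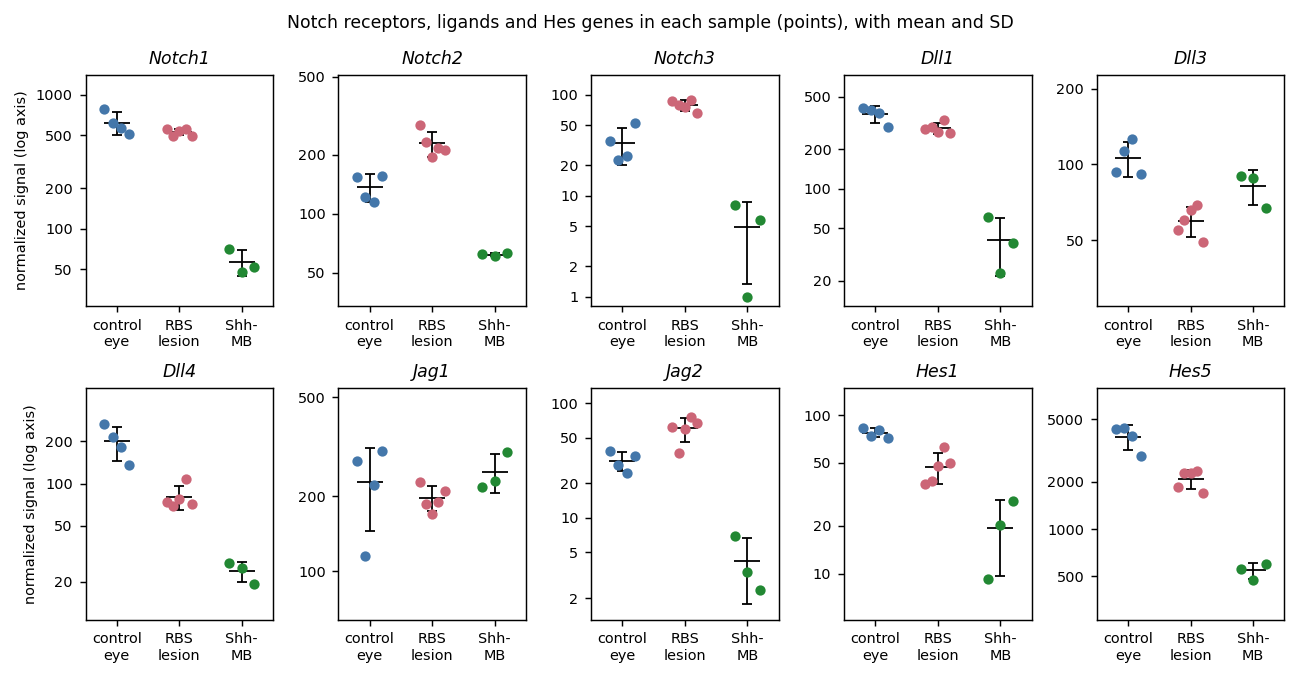
Normalized signal (log axis, each panel with its own range) of the 10 genes in 4 control eyes, 5 *RBS* lesions and 3 Shh-MBs. Points are single samples, and black lines give the mean and SD of a group. *Notch2* and *Notch3* lie above the control eyes in all 5 *RBS* lesions, and *Dll3*, *Dll4*, *Hes1* and *Hes5* lie below them.

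The promoter of *Hes5* is given in full here, because *Hes5* is a direct target of RBPJ. Its signal differed between all 3 groups, as did those of *Notch2*, *Notch3*, *Dll4* and *Hes1*. RBPJ reads the letters TGGGAA, often as GTGGGAA, which contains TGGGAA. Promoter windows of 300 bases, from 250 before to 50 after an annotated transcription start, were taken from RefSeq (GRCm38.p6). They covered 9 of the 10 genes, all but *Hes1*, in 10 windows, with 2 windows for *Dll1*. The window of *Hes5* is shown 5′ to 3′ on the + strand (chr4:154960673-154960972), with both matches to GTGGGAA, read on either strand, in capitals.
Hes5: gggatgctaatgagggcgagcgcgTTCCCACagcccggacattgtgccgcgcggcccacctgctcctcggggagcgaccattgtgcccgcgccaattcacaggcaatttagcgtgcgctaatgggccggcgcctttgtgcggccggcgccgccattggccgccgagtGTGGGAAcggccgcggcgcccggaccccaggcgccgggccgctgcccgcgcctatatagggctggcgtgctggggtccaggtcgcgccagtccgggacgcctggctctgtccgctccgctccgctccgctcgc
The match on the opposite strand began at position -226 from the start site, and the match on the same strand at position -83. Of all 32851 windows of the RefSeq table, 25.6% held TGGGAA on either strand and 6.38% held GTGGGAA, while 0.256% held GTGGGAA 2 times or more. Among the 10 windows examined, TGGGAA was found only in that of *Hes5*, and *Hes1* was not examined. The letters CACNAG, which Hes proteins bind as the N-box, were present on either strand in 5 of the 10 windows (*Dll1*, *Dll4*, *Notch1*, *Notch2* and *Notch3*) and in 42.5% of all windows. Neither GACCACCCA, read by the Gli factors of Shh signaling (0.253% of all windows), nor CTTTGAA, read by the Tcf/Lef factors of Wnt signaling (5.14%), was found on either strand in these 10 windows. A match describes the sequence and is no evidence of binding, and a missing match says only that these letters are absent from the window.

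Of the receptors, *Notch1* is the main Notch receptor of retinal progenitor cells. Its signals were 787, 618, 565 and 512 in control eyes 1 to 4, 555, 494, 536, 558 and 496 in *RBS* lesions 1 to 5, and 70.8, 47.4 and 51.5 in Shh-MBs 1 to 3. The ranges of control eyes and *RBS* lesions overlapped, and all Shh-MBs lay far below both. *RBS* lesions differed from control eyes by -0.22 (SE 0.128, 95% interval -0.50 to 0.07), which did not pass the limma test (adjusted p = 0.197), although *Notch1* was called lower with median centring (-0.40, adjusted p = 0.0285) and with quantile normalization (-0.45, adjusted p = 0.00902). Against Shh-MBs, *Notch1* was 9.31-fold higher in *RBS* lesions (log2 difference 3.22, SE 0.143, limma adjusted p = 1.79e-06). This difference was smaller with median centring (2.37, limma adjusted p = 1.19e-06).

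*Notch2*, a receptor found in progenitor cells and in many tissues outside the nervous system, reached 154, 121, 115 and 156 in control eyes, 284, 232, 195, 216 and 212 in *RBS* lesions, and 61.9, 60.5 and 62.6 in Shh-MBs. The 3 groups did not overlap, with *RBS* lesions highest and Shh-MBs lowest. It rose by 0.74 (SE 0.144) in *RBS* lesions compared with control eyes, a 1.67-fold difference (limma adjusted p = 0.0024; exact permutation p = 0.00794, the smallest possible for 5 against 4 samples). Shh-MBs differed from control eyes by -1.12 (SE 0.142, limma adjusted p = 0.000833). The 3 blood cell markers on the panel, of 7 listed, summed to 79.7 to 115 in control eyes, 156 to 196 in the lesions and 99.5 to 214 in Shh-MBs, and of these *Csf1r*, a receptor of macrophages, rose in the lesions (1.08, limma adjusted p = 0.000271). *Kit*, the only one of 5 pigment cell markers on the panel, rose in the lesions as well (0.48, limma adjusted p = 0.00849). The part of these cells in the *Notch2* difference was not tested.

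*Notch3* is best known as the receptor of mural cells, the pericytes and smooth muscle cells that wrap the endothelium of blood vessels, and is also expressed in neural progenitors. In control eyes its signals were 34.6, 22.7, 24.8 and 52.2, in *RBS* lesions 85.8, 78.6, 75.3, 88.0 and 65.4, and in Shh-MBs 8.10, 1.0 and 5.72. Every *RBS* lesion was above every control eye, and in Shh-MB 2 the gene was at the lowest value of the sample. With a 2.42-fold difference, *Notch3* showed the largest rise of the 10 genes in *RBS* lesions over control eyes (1.27, SE 0.229, limma adjusted p = 0.00148; exact permutation p = 0.00794). The signals in Shh-MBs corresponded to 1.07 to 7.24 counts above background, so the difference of Shh-MBs from control eyes (-2.72, SE 0.564, limma adjusted p = 0.00814) is imprecise, and the call was lost where all values under 20 were set to 20 (-0.64, adjusted p = 0.162) and with quantile normalization (-1.88, adjusted p = 0.0512). Of the 5 mural cell markers listed, *Pdgfrb* was the only one on the panel; its signal was 26.9 to 63.6 in control eyes, 33.0 to 78.4 in the lesions and 5.22 to 8.27 in Shh-MBs. *Pdgfrb* did not pass the test between *RBS* lesions and control eyes (0.36, limma adjusted p = 0.409), and it was higher in *RBS* lesions than in Shh-MBs (2.77, adjusted p = 6.86e-05). The part of mural cells in the *Notch3* signal was not tested.

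Among the ligands, *Dll1* marks neural progenitors that are about to differentiate and activates Notch in their neighbors. The signals were 410, 400, 376 and 294 in control eyes, 286, 297, 268, 335 and 265 in *RBS* lesions, and 60.7, 23.0 and 38.8 in Shh-MBs. Control eye 4 fell within the range of the *RBS* lesions, and the other 3 control eyes lay above all of them. The fall of 0.34 (SE 0.124) in *RBS* lesions was close to the threshold (limma adjusted p = 0.0436; exact permutation p = 0.0476), and it was lost when any 1 of 7 samples was left out, with adjusted p between 0.0703 and 0.115, and with all 12 samples in one fit (adjusted p = 0.247). These were *RBS* lesions 1, 2, 3 and 5 and control eyes 1, 2 and 3, while the call held without *RBS* lesion 4 (adjusted p = 0.0302) or control eye 4 (adjusted p = 0.00779). *Dll1* was 7.46-fold higher in *RBS* lesions than in Shh-MBs (2.90, SE 0.273, limma adjusted p = 4.52e-05), and the log2 difference was 2.05 with median centring (limma adjusted p = 6.93e-05).

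*Dll3*, a divergent ligand that inhibits Notch within the cell that makes it, showed an order of groups unlike the other genes. Signals were 93.2, 113, 127 and 91.7 in control eyes, 54.6, 60.0, 65.6, 68.8 and 49.0 in *RBS* lesions, and 89.8, 88.6 and 66.8 in Shh-MBs. All *RBS* lesions lay below all control eyes, and Shh-MBs lay in between, overlapping only with the *RBS* lesions. *Dll3* fell by 0.82 (SE 0.139) in *RBS* lesions compared with control eyes (limma adjusted p = 0.00107; exact permutation p = 0.00794). It was also called lower in *RBS* lesions than in Shh-MBs (-0.45, SE 0.156, limma adjusted p = 0.0362; exact permutation p = 0.0536), a call that was lost without Shh-MB 1, Shh-MB 2 or *RBS* lesions 1, 2 or 5, with adjusted p between 0.0636 and 0.122. The difference of Shh-MBs from control eyes did not pass the test (-0.37, 95% interval -0.78 to 0.04, limma adjusted p = 0.13), and it turned positive with median centring (0.29) and with quantile normalization (0.30).

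*Dll4*, a ligand of sprouting endothelial cells and of newly formed retinal neurons, had the largest fall of the 10 genes in *RBS* lesions against control eyes. It reached 267, 213, 182 and 136 in control eyes, 74.3, 69.7, 77.1, 107 and 70.9 in *RBS* lesions, and 27.1, 24.9 and 19.3 in Shh-MBs. The 3 groups did not overlap, and *RBS* lesion 4 stood above the other 4 lesions. The signal of *RBS* lesions was 0.41 of that of control eyes (-1.29, SE 0.206, limma adjusted p = 0.000761; exact permutation p = 0.00794). From control eyes to Shh-MBs the difference was -2.99 (SE 0.247, limma adjusted p = 0.000129). Of 8 endothelial markers listed, *Kdr* and *Flt1* were on the panel. Their summed signal, most of it from *Kdr*, was 1683 to 2163 in control eyes, 622 to 858 in the lesions and 93.8 to 197 in Shh-MBs. *Kdr*, a receptor for vascular endothelial growth factor, fell by 1.49 in *RBS* lesions (limma adjusted p = 4.32e-05), whereas *Flt1*, another such receptor, did not pass the test (0.12, adjusted p = 0.771). The part of endothelial cells in the *Dll4* difference was not tested.

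*Jag1*, a ligand of lens, ciliary body and vessel walls, was the only one of the 10 genes that was called in none of the 3 comparisons. Its signals were 276, 115, 221 and 303 in control eyes, 229, 186, 170, 189 and 211 in *RBS* lesions, and 219, 231 and 303 in Shh-MBs. Control eyes spread over more than the whole range of the *RBS* lesions, with control eye 2 lowest of all 12 samples. The difference between *RBS* lesions and control eyes was -0.13 (95% interval -0.73 to 0.46, limma adjusted p = 0.698), it was called without control eye 2 (-0.43, adjusted p = 0.0383), and it was 0.032 without control eye 4. Against Shh-MBs the difference of *RBS* lesions was -0.34 (SE 0.149, 95% interval -0.68 to 0.01, limma adjusted p = 0.0787), and it was called lower with median centring (-1.19), after quantile normalization (-0.90) and after dividing by the total signal less the top 3 genes (-0.73), and also without *RBS* lesion 1 (-0.40, adjusted p = 0.0493). None of the 5 lens markers listed was on the panel.

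*Jag2*, a ligand of surface epithelia and of some developing neurons, was 38.1, 28.7, 24.8 and 34.5 in control eyes, 62.8, 36.5, 60.3, 76.0 and 67.3 in *RBS* lesions, and 6.99, 3.35 and 2.33 in Shh-MBs. *RBS* lesion 2 fell within the range of the control eyes, and the other 4 lesions lay above all of them. The gene rose 1.87-fold in *RBS* lesions (0.90, SE 0.216, limma adjusted p = 0.00705; exact permutation p = 0.0238). Shh-MBs gave 2.75 to 6.24 counts above background for *Jag2*, and differed from control eyes by -2.72 (SE 0.315, limma adjusted p = 0.000542). Where all values under 20 were set to 20, *Jag2* remained called but the difference was -0.61 (adjusted p = 0.0272), and it was 1.51 in place of 3.62 between *RBS* lesions and Shh-MBs. The surface epithelium markers *Sfn* and *Itgb4*, the 2 of 6 listed that were on the panel, summed to 13.4 to 34.5 in control eyes, 25.4 to 57.3 in the lesions and 3.33 to 9.22 in Shh-MBs. *Itgb4*, an integrin of the basal side of epithelia, also rose in the lesions compared with control eyes (1.19, limma adjusted p = 0.0139), while *Sfn* did not pass the test (0.51, adjusted p = 0.41). The part of epithelial cells in the *Jag2* difference was not tested.

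Both transcription factors that act below the receptors fell in *RBS* lesions. *Hes1*, a repressor of neuronal differentiation that also responds to other signals, gave signals of 82.7, 74.4, 81.1 and 72.0 in control eyes, 36.6, 38.2, 48.0, 62.7 and 49.9 in *RBS* lesions, and 9.22, 20.2 and 28.6 in Shh-MBs. No group overlapped with another, and control eyes were highest. The fall in *RBS* lesions was 0.73 (SE 0.158, limma adjusted p = 0.00403; exact permutation p = 0.0159). *RBS* lesions were higher than Shh-MBs by 1.34 (SE 0.341, limma adjusted p = 0.00876), but this was not called with median centring (0.50, adjusted p = 0.294) and was -0.03 with quantile normalization. Shh-MBs differed from control eyes by -2.08 (SE 0.343, limma adjusted p = 0.00297), and this call was lost with quantile normalization (-1.11, adjusted p = 0.113).

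*Hes5*, the *Hes* gene most closely tied to Notch activity in neural progenitors, had signals of 4324, 4416, 3915 and 2903 in control eyes, 1853, 2281, 2260, 2353 and 1697 in *RBS* lesions, and 558, 476 and 601 in Shh-MBs. The 3 groups were again separate, in the same order as for *Hes1*. *RBS* lesions reached 0.54 of the signal of control eyes (-0.89, SE 0.158, limma adjusted p = 0.00138; exact permutation p = 0.00794) and 3.82-fold that of Shh-MBs (1.93, SE 0.149, limma adjusted p = 1.76e-05). With median centring the log2 difference of *RBS* lesions from Shh-MBs was smaller (1.085, limma adjusted p = 0.000423). Shh-MBs were lower than control eyes by 2.82 on the log2 scale (limma difference -2.82, SE 0.179, adjusted p = 3.99e-05). The retinal markers *Fgf15* and *Sfrp2*, the 2 of 11 listed that were on the panel, summed to 1779 to 2059 in control eyes, 449 to 789 in the lesions and 605 to 844 in Shh-MBs. The sum in Shh-MBs was almost all *Sfrp2* (604, 843 and 666), while *Fgf15* did not exceed the lowest value of the sample in 2 tumors and reached 4.87 in the other. Both fell in *RBS* lesions, *Fgf15* by 2.89 (limma adjusted p = 1.31e-05) and *Sfrp2* by 1.10 (adjusted p = 0.00266), and the part of retinal cells in the differences of *Hes1*, *Hes5*, *Dll1* and *Dll3* was not tested. The 5 neuronal markers on the panel, of 11 listed, summed to 555 to 722 in control eyes, 2224 to 2967 in the lesions and 352 to 551 in Shh-MBs, most of it from *Mapt*. *Mapt*, which encodes the neuronal protein tau, rose by 1.70 in *RBS* lesions (limma adjusted p = 9.12e-06). In Shh-MBs against control eyes *Mapt* was lower (-1.02, limma adjusted p = 0.00317), a call that was lost with median centring (-0.36, adjusted p = 0.125). By contrast, *Cacna1e* (2.91), *Grin1* (1.91) and *Grin2b* (0.93) were called higher in Shh-MBs than in control eyes, and *Grin2a* was not called.

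**Figure D2:**
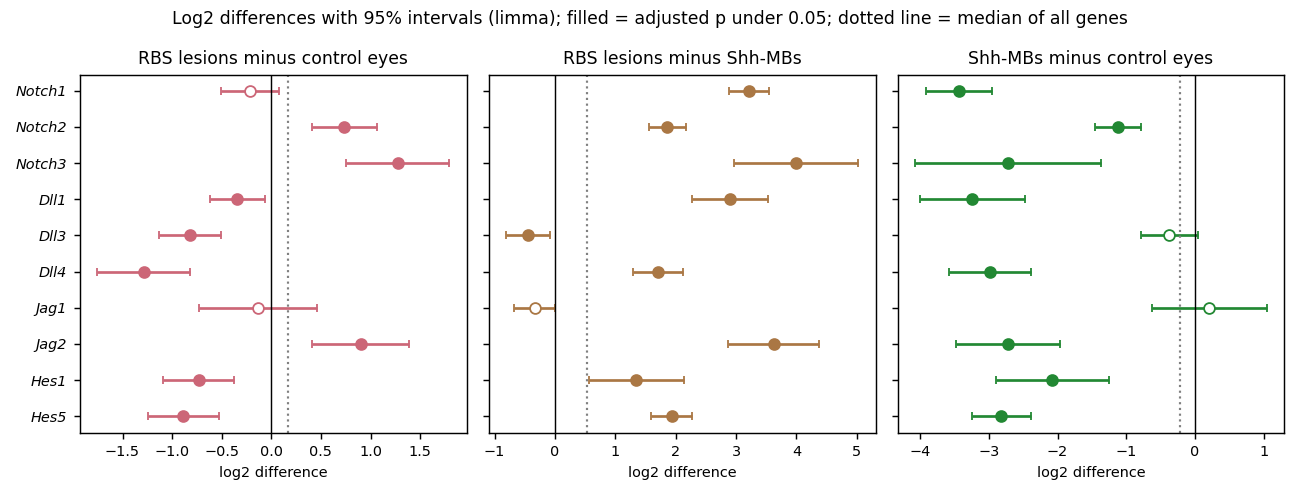
Log2 differences of the 10 genes in each of the 3 comparisons (points) with 95% intervals from limma, filled where the adjusted p was below 0.05. The dotted line is the median of all 770 genes (0.17, 0.53 and -0.22). Receptors and ligands lie on both sides of 0 between *RBS* lesions and control eyes, and 9 of the 10 genes lie below 0 in Shh-MBs against control eyes.

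Counted over the 10 genes, 3 were called higher and 5 lower in the lesions than in control eyes. Over the whole panel 33.0% of genes were called higher and 18.2% lower, and the groups did not overlap in 43.4% of genes, against 6 of the 10. The median difference of the 10 genes was -0.28, beside 0.17 over all genes. The calls over all genes, 254 higher and 140 lower, became 177 higher and 177 lower with median centring and 185 higher and 179 lower with quantile normalization, while the 10 genes gave 3 higher and 6 lower under both. By role, 2 of 3 receptors were higher and none lower, 1 of 5 ligands was higher and 3 were lower, and both *Hes* genes were lower.

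Between *RBS* lesions and Shh-MBs, 8 of the 10 genes were called higher in *RBS* lesions and 1, *Dll3*, lower. The panel as a whole had 48.1% of genes called higher and 12.7% lower in this comparison, with no overlap of the groups in 59.9% of genes and in 8 of the 10. The median difference was 1.89 over the 10 genes and 0.53 over all genes. This comparison moved with the scaling: median centring shifted the median of all genes to -0.32 and the calls over all genes from 370 higher and 98 lower to 181 higher and 319 lower. Under the same scaling 7 of the 10 genes were called higher and 2 lower, with a median of 1.05.

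Shh-MBs against control eyes gave 8 of the 10 genes called lower and none higher, whereas 31.4% of all genes were called lower and 9.61% higher. No gene of the 10 was higher at an unadjusted limma p below 0.05 either. The groups did not overlap for 9 of the 10 genes and for 48.2% of all genes. The 10 genes had a median of -2.72, and all genes had a median of -0.22. With median centring the median of all genes became 0.44, and the calls over all genes turned from 74 higher and 242 lower to 311 higher and 139 lower, while 8 of the 10 genes were called lower. With quantile normalization 6 of the 10 were called lower, since *Notch3* and *Hes1* lost their call, beside 223 higher and 149 lower over all genes. *Zic2*, a transcription factor of cerebellar granule cell precursors and the only one of 6 listed markers of that lineage on the panel, was 223 to 347 in control eyes and 924 to 1142 in Shh-MBs (1.87, limma adjusted p = 0.000234). The 5 mesenchymal markers on the panel, of 7 listed, summed to 23990 to 54530 in control eyes, 18570 to 34780 in the lesions and 1251 to 1921 in Shh-MBs, and their part in the differences of the 10 genes was not tested. Collagen genes made up most of the sums of the eye samples, and the remaining marker, *Pdgfra*, was instead higher in Shh-MBs than in control eyes (1.53, limma adjusted p = 0.00505). The 3 comparisons share samples, so they are not independent of each other.

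**Figure D3:**
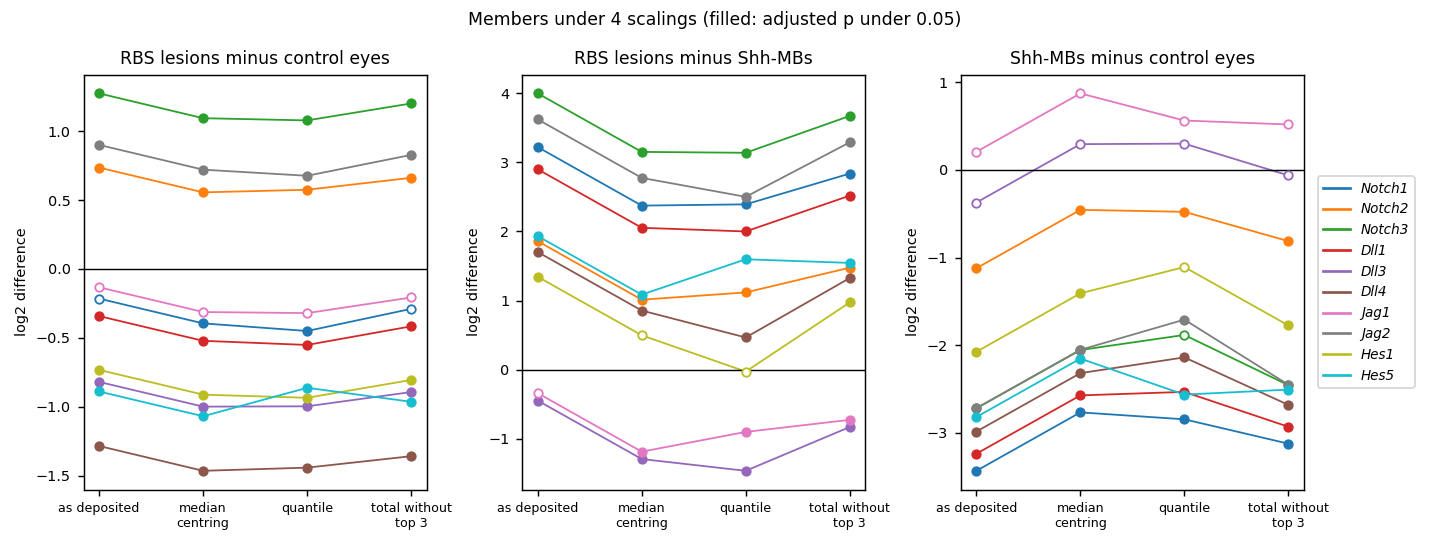
Log2 differences of the 10 genes with the values as deposited and under 3 other scalings, filled where the limma adjusted p was below 0.05. Between *RBS* lesions and control eyes every gene kept its sign, whereas *Hes1* reached -0.03 against Shh-MBs with quantile normalization and *Dll3* turned positive in Shh-MBs against control eyes with median centring (0.29) and quantile normalization (0.30).

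Ratios between 2 of the genes within a sample are nearly free of a factor that multiplies the whole sample, except where a signal is close to its lowest value. They are given as log2 differences with their SD and without a test, and their size has no meaning across genes. *Notch1* over *Notch2* was 2.17 ± 0.311 (SD, n = 4) in control eyes, 1.22 ± 0.201 (n = 5) in *RBS* lesions and -0.14 ± 0.292 (n = 3) in Shh-MBs, with no overlap between any of the groups. Relative to *Notch1*, *Notch3* was -4.23 ± 0.649 in control eyes and -2.74 ± 0.117 in *RBS* lesions, again without overlap, and -3.51 ± 0.937 in Shh-MBs. The overlap of Shh-MBs with control eyes came from Shh-MB 2 (-4.60), where *Notch3* was at the lowest value, so that this ratio is set by the floor and the added 1. The receptors thus stood in another proportion in all 5 *RBS* lesions than in the 4 control eyes.

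The ratios among ligands separated other groups. *Dll4* over *Dll1* was -0.92 ± 0.219 in control eyes, -1.86 ± 0.165 in *RBS* lesions and -0.67 ± 0.675 in Shh-MBs, and all *RBS* lesions lay below all samples of the other groups. *Dll3* over *Dll1* was -1.79 ± 0.245 in control eyes and -2.27 ± 0.154 in *RBS* lesions, which overlapped, and 1.07 ± 0.722 in Shh-MBs, above both. *Dll1* over *Jag1* was 0.77 ± 0.763 in control eyes and 0.56 ± 0.224 in *RBS* lesions, also overlapping, and -2.68 ± 0.753 in Shh-MBs. *Hes5* over *Hes1* overlapped between all groups, with 5.61 ± 0.234 in control eyes, 5.46 ± 0.324 in *RBS* lesions and 4.87 ± 0.786 in Shh-MBs.

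**Figure D4:**
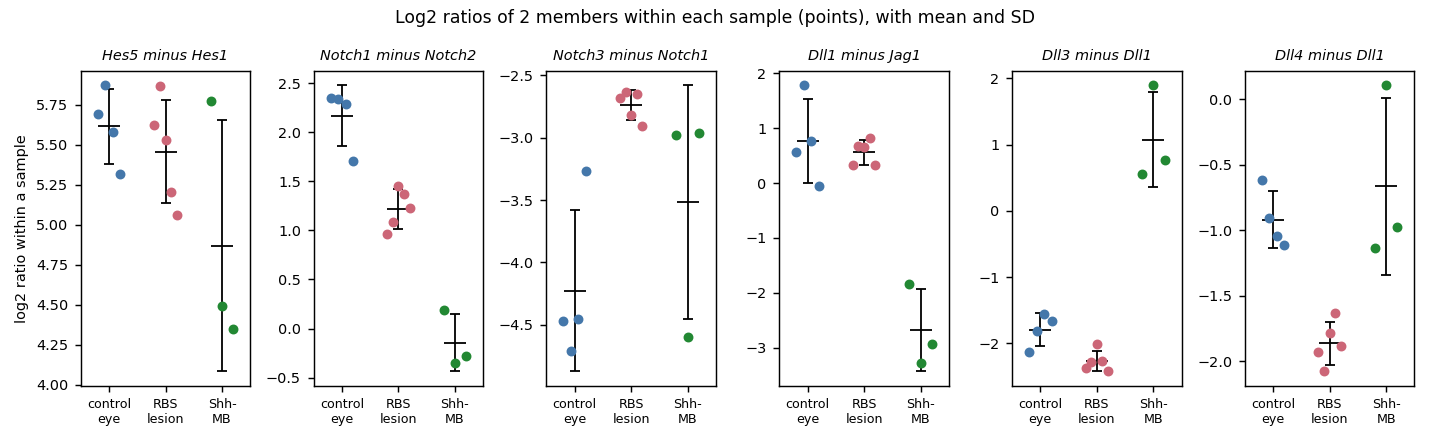
Log2 ratios of pairs of the 10 genes within each sample (points), with the mean and SD of each group. *Notch1* over *Notch2* separates all 3 groups (2.17, 1.22 and -0.14), and *Dll4* over *Dll1* is lowest in the 5 *RBS* lesions (-1.86).

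Samples within a group also differed. Control eye 4 was the control eye closest to the mean of the *RBS* lesions for 8 of the 10 genes, and for 31.2% of all genes on the panel. It had the lowest *Notch1*, *Dll1*, *Dll3*, *Dll4*, *Hes1* and *Hes5* of the control eyes and the highest *Notch2*, *Notch3* and *Jag1*. Without it, 3 of the 10 genes were called higher and 5 lower in *RBS* lesions, beside 261 and 131 of all genes. *RBS* lesion 4 had the highest signal of the 5 lesions for 8 of the 10 genes, and for 28.8% of all genes. Leaving it out gave 3 called higher and 5 lower, beside 234 and 140 of all genes.

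Of the other genes of the pathway, 19 were on the panel, from a list of cofactors, processing enzymes and modifiers that also holds *Ptcra*. *Ptcra* was at the lowest value of the sample in 3 of 4 control eyes, 4 of 5 *RBS* lesions and 2 of 3 Shh-MBs. In *RBS* lesions 9 of the 19 were called higher and 3 lower than in control eyes, beside 33.0% and 18.2% of all genes. The 9 include the Dishevelled genes *Dvl1* (0.58) and *Dvl3* (0.64). The median difference of the 19 was 0.27 against 0.17 over all genes. The counts became 7 higher and 4 lower with median centring and 8 higher and 6 lower with quantile normalization, under which the calls over all 770 genes were 177 and 177, and 185 and 179. The largest rises were those of *Aph1b*, a subunit of the γ-secretase that cuts the receptor (1.10, SE 0.12, limma adjusted p = 9.4e-05), *Dtx3*, a Deltex ubiquitin ligase (0.82, SE 0.118, adjusted p = 0.000426), and *Maml2*, a coactivator that joins the cut receptor and RBPJ (0.77, SE 0.0822, adjusted p = 8.52e-05). *Aph1b* signals were 155, 163, 144 and 146 in control eyes and 260, 325, 327, 346 and 390 in *RBS* lesions, and did not overlap. The genes that fell were *Fbxw7*, which marks the cut receptor for degradation (-0.87, SE 0.101, limma adjusted p = 0.000129), *Kat2b*, a histone acetyltransferase (-0.59, SE 0.115, adjusted p = 0.00247), and *Hdac1*, a histone deacetylase of corepressor complexes (-0.29, SE 0.0994, adjusted p = 0.0339). *Fbxw7* was 492, 483, 456 and 381 in control eyes and 227, 251, 251, 238 and 269 in *RBS* lesions, with all lesions below all control eyes. These 6 genes kept their direction and their call under all 3 other scalings.

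Against Shh-MBs, 11 of the 19 genes were called higher in *RBS* lesions and none lower, beside 48.1% and 12.7% of all genes, which became 4 higher and 9 lower with median centring, where all genes gave 181 higher and 319 lower. Shh-MBs had 9 of the 19 called lower than control eyes and none higher, beside 31.4% and 9.61% of all genes, with 1, *Hdac2*, higher at an unadjusted limma p below 0.05, which became 2 lower and 9 higher with median centring, where all genes gave 139 lower and 311 higher. Of the genes on which Notch is known to act besides *Hes1* and *Hes5*, 4 of the 14 listed were on the panel. *Sox9*, a transcription factor of progenitors and glia, rose in the lesions compared with control eyes (0.52, limma adjusted p = 0.00562), a call that was lost with quantile normalization (0.24, adjusted p = 0.0684). *Ccnd1*, the cyclin D1 gene, was lower (-2.92, limma adjusted p = 3.48e-06). *Myc* (0.18, adjusted p = 0.526) and *Cdkn1a* (0.19, adjusted p = 0.46) did not pass the test.

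**Figure D5:**
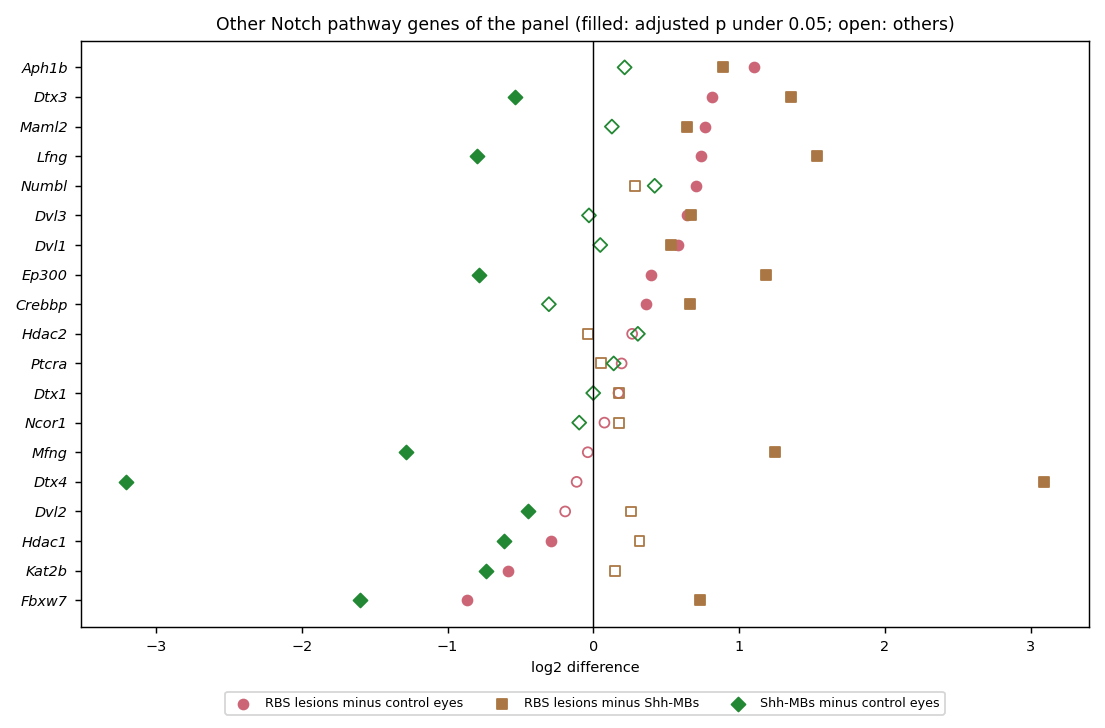
Log2 differences of 19 other Notch pathway genes in the 3 comparisons with the values as deposited (circles, squares and diamonds), filled where the limma adjusted p was below 0.05. *Aph1b* (1.10) has the largest rise and *Fbxw7* (-0.87) the largest fall in *RBS* lesions against control eyes.

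Finally, for each gene the panel gene with the most similar profile over the 12 samples was sought among 582 genes above the lowest value in every sample, using the root mean square difference of log2 values after centring each gene on its own mean. The closest profiles were *Dtx4*, another Deltex gene, for *Notch1* (0.257), *Cbl* for *Notch2* (0.168) and *Wnt5a* for *Notch3* (0.344). The second gene was almost as close for *Notch1* (*Runx1t1*, 0.266) and for *Hes5* (*Zbtb16*, 0.338). The ligands were nearest to *Met* for *Dll1* (0.246), *H2afx* for *Dll3* (0.192), *Bnip3* for *Dll4* (0.312), *Akt2* for *Jag1* (0.268) and *Bmp2* for *Jag2* (0.316). *Hes1* (0.311) and *Hes5* (0.331) had the same nearest gene, *Lama1*, whose mean signal was 95.4 ± 21.7 (SD, n = 4) in control eyes, 46.1 ± 8.74 (n = 5) in *RBS* lesions and 15.8 ± 3.99 (n = 3) in Shh-MBs. These values describe the same 12 samples and depend largely on the differences between the 3 groups.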

How the data were processed

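RNA was extracted from fresh-frozen tissue of 1 lesion, eye or tumor per animal and hybridized to the nCounter Mouse PanCancer pathways panel. Normalization was done by the authors in nSolver and its Advanced Analysis module, and they deposited a normalized signal on the linear scale; its values show that a background was subtracted, that low values were raised to a lowest value (52 to 123 genes per sample) and that each sample was multiplied by 1 factor. The background setting and reference genes are not given in the sources used here. Counts above background are the total signal divided by the usual step between neighboring low values of a sample.

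Groups followed the sample labels. Values were transformed as log2(signal + 1), and each pair of groups was fitted with limma 3.58.1 (R 4.3.3) on all 770 genes without a filter, with Benjamini-Hochberg adjustment and a threshold of 0.05. The study's methods used a Welch t-test with permutations and a Bonferroni correction; as an alternative it was run without permutations, with p from the t distribution, under a Benjamini-Hochberg and a step-down Bonferroni adjustment. Exact permutation tests were two-sided over all assignments of samples to 2 groups, with smallest p of 0.00794, 0.0179 and 0.0286 for 5 against 4, 5 against 3 and 3 against 4. The limma step was tested on simulated data. All 10 genes, and the other Notch genes by the 3 largest called rises and falls, are named. The genes and lists were chosen with earlier results of these data known. Other scalings, pseudocounts, filters, tests and sample sets were tried as alternatives; the scalings of the other Notch genes were read after their values were seen. Promoter sequences are from RefSeq GRCm38.p6.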

Additional observations from a re-analysis of the deposited data

Results flagged for a closer look

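*Dll4* in *RBS* lesion 4 had a signal of 107, far from the other 4 *RBS* lesions at 69.7 to 77.1. The gap to the next lesion was 0.769 of the range of the group on the log2(signal + 1) scale, above Dixon's critical value of 0.71 for 5 samples. Of 20 sets of 1 gene and 1 group of 4 or 5 samples, this was the only one past the limit, and chance alone marks about 1 in 20.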

How the results depend on the processing

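Single-gene differences mostly kept their direction and side of the threshold. With 1 sample left out this held for 81 of 90 values between *RBS* lesions and control eyes, 74 of 80 between *RBS* lesions and Shh-MBs, and 69 of 70 between Shh-MBs and control eyes; under the other alternatives it held for 97 of 110, 93 of 110 and 94 of 108. *Jag1* ranged from -0.43 to 0.03 (0.032) between *RBS* lesions and control eyes, and from -0.09 (-0.092) without control eye 2 to 0.37 without control eye 4 between Shh-MBs and control eyes. *Hes1* was -0.03 (-0.028) between *RBS* lesions and Shh-MBs with quantile normalization, and *Dll3* between Shh-MBs and control eyes was 0.29 after median centring and 0.30 after quantile normalization. *Notch3* (adjusted p = 0.0512) and *Hes1* (adjusted p = 0.113) in Shh-MBs against control eyes were not called with quantile normalization.

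With the Welch t-test of the methods, run with p from the t distribution in place of permutations, and a step-down Bonferroni correction, none of the 10 genes was called between *RBS* lesions and control eyes (0 higher and 0 lower), 2 were higher and 0 lower in *RBS* lesions than in Shh-MBs, and 1 was lower in Shh-MBs than in control eyes. With Benjamini-Hochberg correction of the same test, 3 were higher and 4 lower in the lesions than in control eyes (219 and 128 of all genes), 6 higher and 0 lower than in Shh-MBs (290 and 90), and 0 higher and 6 lower in Shh-MBs than in control eyes (53 and 164). The genes called lower in *RBS* lesions than in Shh-MBs numbered 2 with median centring, quantile normalization and the total without the top 3 genes, 0 with limma's trend and robust options and with the replicate block, and 0 to 1 with 1 sample left out (0 without Shh-MB 1, Shh-MB 2, *RBS* lesion 2 or *RBS* lesion 5). The cause was not tested.

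Over all genes, step-down Bonferroni gave 41 higher and 31 lower, 56 and 24, and 7 and 29 in the 3 comparisons. Between *RBS* lesions and Shh-MBs, median centring gave 181 and 319, quantile normalization 203 and 236, and the total without the top 3 genes 164 lower. Between Shh-MBs and control eyes they gave 311 and 139, 223 and 149, and 160 higher.

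Sample numbers do not pair the samples: same-numbered samples had correlations of deviations between -0.148 and 0.188. With the replicate number as a block, *RBS* lesions against control eyes had 3 genes higher and 4 lower (*Dll1* -0.31, adjusted p = 0.191, and 0.0848 with the Welch t-test and Benjamini-Hochberg), *RBS* lesions against Shh-MBs 8 higher and 0 lower, and Shh-MBs against control eyes 8 lower; over all genes these fits gave 192 higher and 109 lower, 323 and 84, and 51 and 179. Low counts limit *Notch3* and *Jag2* in Shh-MBs, and both were left out of the comparison with control eyes by the filter on low values.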
